A study of Mus musculus with 40 samples.

Results

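This comparison covers the 4 libraries of naïve exGF amygdala against the 4 libraries of naïve GF amygdala, 8 of the 40 libraries in the count table, and it takes in all genes. The members were chosen by their group in the sample labels and by the column names of the table, with no measured value. Both groups were male Swiss Webster mice aged 10 weeks from the same germ-free breeding unit, with no genetic change named in the labels, and none had been through a social test. GF mice stayed in isolators without microbes. exGF mice were born germ-free, left the isolators after weaning and lived in the standard unit on bedding that conventionally raised (CON) mice had used. Colonisation therefore goes together with the change of housing, and the 2 cannot be told apart here. The question was what colonisation at weaning leaves in the unstimulated amygdala, a set of nuclei in the temporal lobe that assigns emotional value to stimuli and guides social behaviour. Each library was a pool of the left amygdala of 2 to 3 animals according to the labels and of 2 according to the methods, while the study's quality sheet lists a single animal for GF-P2, and which of these holds was not settled. The tests therefore measure the spread between pools.

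Germ-free animals lack the microbial products that normally reach the host from birth, among them short-chain fatty acids, tryptophan metabolites and fragments of the bacterial wall. Colonisation at weaning restores these signals after the first postnatal weeks, when much of the wiring of the brain has been laid down, so that genes which follow the current microbial state can differ between exGF and GF mice while genes set earlier in life need not. Microbes are known to keep a low tone of interferon signalling in many tissues, and to act on the stress axis, on the daily clock and on brain endothelium.

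Library totals were 10153860 to 15320023 counts in GF and 10271854 to 16959682 in exGF. Gm42418, a locus that collects ribosomal RNA reads, took 14.3% of the counts of exGF-P1 and 6.23% of exGF-P2, against 0.0207% to 0.107% in the other 6 libraries, and exGF-P1 and exGF-P2 stood apart from the rest on the leading axis of a multidimensional scaling plot (34.4% of the variance). Mitochondrial genes made up 7.22% to 11.4% of the counts in GF and 8.64% to 19.2% in exGF, which did not differ by an exact two-sided permutation test over the libraries (p = 0.229, adjusted over 3 measures 0.429; 0.0286 is the smallest p these 8 libraries can give). Values without exGF-P1 and exGF-P2 are therefore given beside many of the results, though not all. Summed amygdala marker levels overlapped between groups, at 576 to 873 CPM in GF and 592 to 905 CPM in exGF. CPM stands for the counts of a gene scaled to a common library total.

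Of 14669 genes tested with edgeR, 0 passed the adjusted p threshold of 0.1, with the lowest adjusted p at 0.169 for Leng8, Banp, Hist1h4h and Dnajb5. At an unadjusted p under 0.05 stood 1382 genes (9.42%), 726 higher (4.95%) and 656 lower (4.47%) in exGF. DESeq2 called 72 of 12347 genes (0.583%), 47 higher (0.381%) and 25 lower (0.202%). All 72 were at an unadjusted edgeR p under 0.05, and in 64 of them the 4 exGF values did not overlap the 4 GF values, which was so for 5.13% of all tested genes (2.41% higher and 2.71% lower). Their median absolute log2 fold change was 0.54, and 0.41 without exGF-P1 and exGF-P2. By edgeR, 3 genes passed without GF-P3 (Rpl29, Gh and Prl), 1 passed without exGF-P4 (Hist1h4h) and 2 passed without both exGF-P1 and exGF-P2 (Rps24-ps3 and Ttr). A log2 fold change is exGF over GF throughout, with its standard error in brackets, and CPM values are scaled by the TMM method. Because no gene passed edgeR, the genes below are described by their values, and a statement that a gene was called refers to DESeq2.

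**Figure D1:**
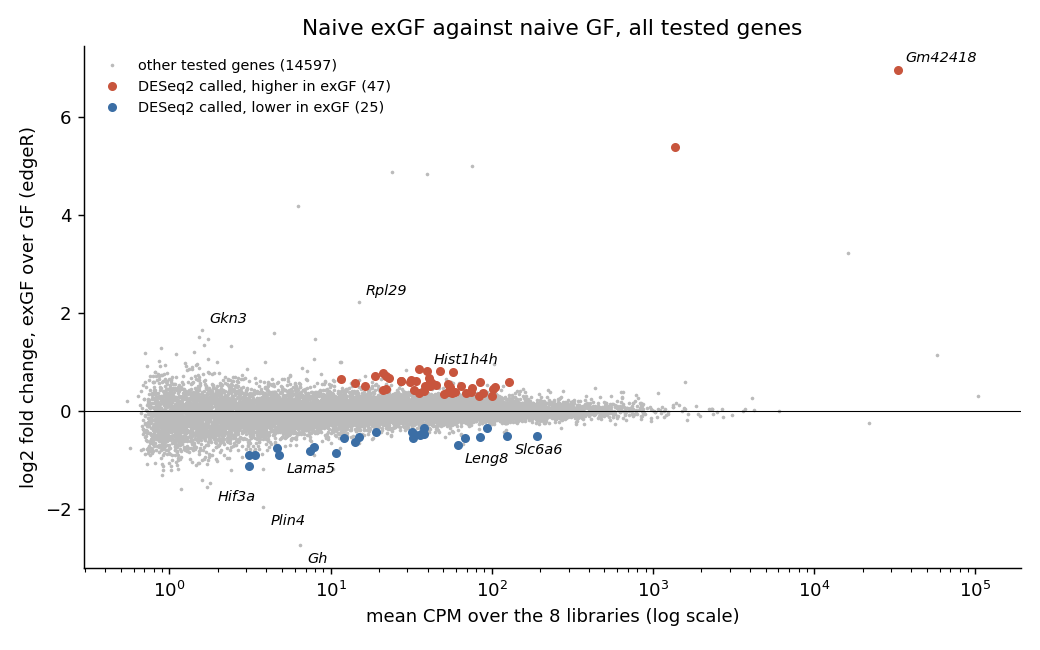
Log2 fold change of exGF over GF (vertical axis) against mean CPM over the 8 libraries (horizontal axis, log scale) for the 14669 tested genes; red and blue points are the 47 higher and 25 lower genes called by DESeq2. The called genes lie mostly within 1 on the log2 scale, while Gm42418 at 6.97 and Lars2 at 5.39 stand far outside and rest on 2 of the exGF libraries.

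Genes of the daily clock were among those higher in exGF. The clock runs on a loop in which Per and Cry proteins shut off their own activators, and several of its parts also answer to neuronal activity and to glucocorticoids. Per2 (chr1:91415982-91459324, GRCm38), a core repressor of the loop, stood at 23.6, 23.5, 21.1 and 30.0 CPM in GF and at 38.2, 42.7, 38.1 and 34.5 CPM in exGF. Every exGF pool was above every GF pool. The log2 fold change was 0.64 (0.11), with an adjusted p of 0.261 by edgeR and 0.00123 by DESeq2, and it was 0.57 without exGF-P1 and exGF-P2. Bhlhe40 (Dec1; chr6:108660629-108666925), a repressor that competes with the clock activators for DNA, had 36.4, 37.7, 34.6 and 57.3 CPM in GF and 84.2, 88.9, 60.4 and 57.9 CPM in exGF. Here GF-P4 nearly reached the lowest exGF pool, and the log2 fold change of 0.80 (0.18; adjusted p of 0.306 by edgeR, 0.00603 by DESeq2) was 0.51 without exGF-P1 and exGF-P2. Nr1d1 and Nr1d2, the Rev-erb repressors that respond to the loop, differed less. Nr1d1 averaged 52.8 ± 2.23 CPM in GF and 59.7 ± 2.78 in exGF (SD, n = 4) without overlap, and Nr1d2 121 ± 18.0 and 147 ± 3.79 with overlap.

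Of the 18 tested clock genes, 6 were higher in exGF at an unadjusted p under 0.05 (background 4.95%) and 0 were lower, 2 of them called by DESeq2. In the list, 14 genes lay above 0, where 48.2% of all tested genes did. Its median log2 fold change was 0.17, against -0.01 over all genes, and 0.03 without exGF-P1 and exGF-P2. The median of this list thus rested largely on these libraries, although the difference in Per2 did not.

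**Figure D2:**
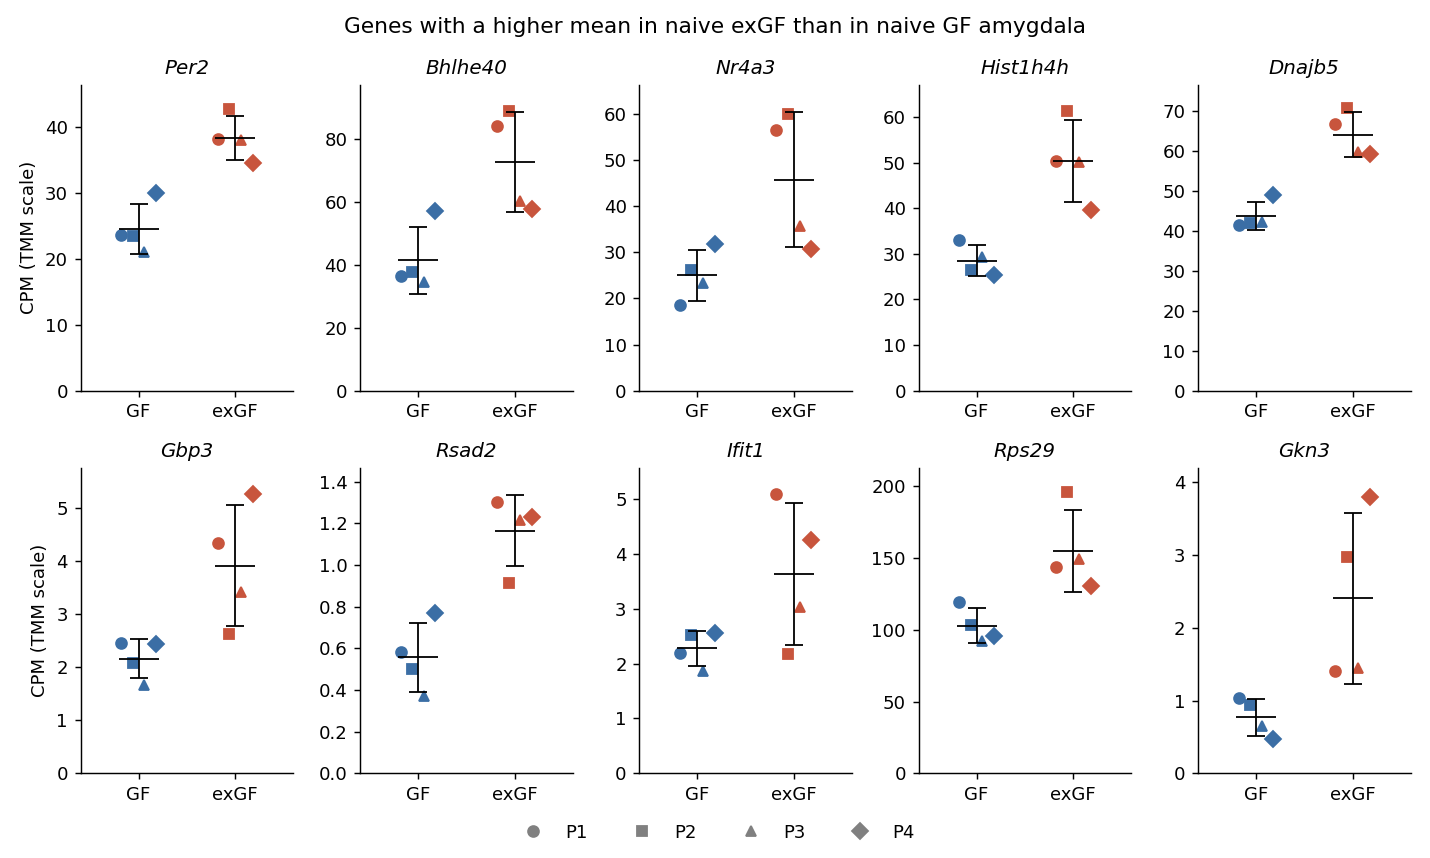
CPM (TMM scale, vertical axes from 0) of 10 genes with a higher mean in exGF, with 1 point for each of the 4 GF (blue) and 4 exGF (red) pools, the symbol giving the pool number, and lines for the mean ± SD. Per2, Hist1h4h, Dnajb5 and Rps29 show 2 separate groups, while the exGF spread of Nr4a3 comes from exGF-P1 and exGF-P2 lying above the others.

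Immediate early genes, which neurons switch on within minutes of firing, shared no common direction. Nr4a3, an orphan nuclear receptor induced through cAMP response elements, had 18.6, 26.2, 23.3 and 31.8 CPM in GF and 56.6, 59.9, 35.7 and 30.7 CPM in exGF. It was called by DESeq2 (0.86 (0.22), adjusted p of 0.391 by edgeR and 0.0188 by DESeq2), yet exGF-P4 was inside the GF range. Egr1, a zinc finger factor of the same class, stood at 45.5, 62.5, 78.4 and 91.8 CPM in GF and at 194, 174, 101 and 78.9 CPM in exGF. In both genes exGF-P1 and exGF-P2, the pools with much Gm42418, carried the difference, and without them it was 0.41 for Nr4a3 and 0.38 for Egr1. Fos, the classical marker of recent activity, went from 4.96 to 30.7 CPM among GF pools and from 8.12 to 24.5 CPM among exGF pools, so that the groups overlapped widely. Over the list of 21 genes, 4 were higher and 1 was lower at an unadjusted p under 0.05, and the median of 0.18 turned to -0.28 without exGF-P1 and exGF-P2. The part of the ribosomal RNA reads in these values was not tested.

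The sequence upstream of Nr4a3 is shown because this gene is a known target of cAMP signalling. From the RefSeq promoter window (GRCm38.p6, chr4:48045065-48045149, plus strand, bases -240 to -156 from the annotated start), with the half-site TGACGT of the cAMP response element in capitals, it reads:

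Nr4a3: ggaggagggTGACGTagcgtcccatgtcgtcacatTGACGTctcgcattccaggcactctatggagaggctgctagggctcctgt

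The half-site, searched on both strands as TGACGT and ACGTCA, was in 7.51% of all 32851 windows, each running from 250 bases before to 50 bases after a start. RefSeq windows of Per2 and Bhlhe40 were not used here.

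A group of replication-dependent histone genes, those for histone H4, was among the calls with the smallest p. These genes make the histones that package newly copied DNA, and their transcripts normally lack a poly-A tail, so that ribodepleted libraries such as these count them while poly-A libraries do not. Hist1h4h (chr13:23531050-23531519), one of the histone H4 genes, had 32.9, 26.5, 29.3 and 25.3 CPM in GF and 50.4, 61.4, 50.04 and 39.6 CPM in exGF. No exGF pool fell inside the GF range, and the log2 fold change was 0.81 (0.13; adjusted p of 0.169 by edgeR and 3.68e-05 by DESeq2). Hist1h4f and Hist1h4a, other copies of H4 on chromosome 13, were called too, at 0.82 (0.17) and 0.78 (0.15). Hist1h4f averaged 34.5 ± 7.80 CPM in GF and 61.2 ± 10.4 in exGF, and Hist1h4a 15.5 ± 1.86 and 26.7 ± 6.32 (SD, n = 4), both without overlap. Hist2h4, an H4 gene on chromosome 3, went the same way without being called (0.49 (0.14)).

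H4 copies code for the same protein and share much of their sequence, so that reads could be split between them or lost, and their values are uncertain one by one. Without exGF-P1 and exGF-P2 the differences of Hist1h4h, Hist1h4f and Hist1h4a were 0.66, 0.65 and 0.64. The H4 genes were not typical of the whole histone list. Of its 19 tested members, 5 were higher and 2 lower at an unadjusted p under 0.05, the lower ones being Hist2h2ac at -0.64 and Hist1h2al at -0.83, and the list median was 0.25, or 0.12 without exGF-P1 and exGF-P2. Hist1h4f is not on this list. In CON pools Hist1h4h ranged from 24.2 to 58.8 CPM, so that it spanned both groups.

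Of the cytosolic chaperones, 15 of 18 lay above 0, by small amounts, where 48.2% of all tested genes did, and 0 were called. Heat shock and endoplasmic reticulum chaperones fold new or damaged proteins, and each set can be induced when folding in its own compartment is under strain. Dnajb5 (chr4:42949814-42959425), an Hsp40 co-chaperone, had 41.5, 42.0, 42.3 and 49.0 CPM in GF and 66.7, 70.5, 59.5 and 59.2 CPM in exGF. The groups were well apart, at 0.55 (0.09) with an adjusted p of 0.169 by edgeR and 0.000175 by DESeq2, and at 0.45 without exGF-P1 and exGF-P2. Of 18 tested cytosolic chaperones, 7 were higher at an unadjusted p under 0.05 (background 4.95%) and 0 were lower (4.47%), with a median of 0.14. Dnaja1, another Hsp40, averaged 130 ± 15.9 CPM in GF and 167 ± 15.4 in exGF (SD, n = 4). Of 19 genes of the unfolded protein response, which senses misfolding in the endoplasmic reticulum, 18 lay above 0, 6 were higher at an unadjusted p under 0.05 and 0 were lower, with a median of 0.18 and of 0.10 without exGF-P1 and exGF-P2. Ddit3 (Chop), a transcription factor of that response, stood at 9.96 ± 0.947 CPM in GF and 12.8 ± 1.195 in exGF, and the disulphide isomerase Pdia4 at 50.9 ± 2.84 and 59.6 ± 4.03. None of the genes in these lists was called by edgeR or DESeq2. Dnajb5 itself is not on either list.

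Banp (chr8:121949750-122029258), a nuclear matrix protein that binds unmethylated CG-rich promoters, had 12.5 to 15.1 CPM over the GF pools and 27.4, 23.5, 22.4 and 21.01 CPM in exGF. It was 0.72 (0.11) higher, with an adjusted p of 0.169 by edgeR and 9.98e-05 by DESeq2, though genes annotated inside its span share unstranded reads with it. P4ha1, which hydroxylates prolines of collagen, averaged 45.5 ± 2.36 CPM in GF and 64.1 ± 9.11 in exGF, and Kcng1, a modifying subunit of potassium channels, 16.6 ± 3.50 and 27.3 ± 5.35 (SD, n = 4). Both were without overlap. Without exGF-P1 and exGF-P2, Banp was at 0.61, P4ha1 went from 0.49 to 0.32 and Kcng1 from 0.72 to 0.65.

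Interferon-stimulated genes had low levels, and 14 of 16 lay above 0. Interferons reach their target genes through STAT and IRF factors, and the products block viruses or mark infected cells. Gbp3, a guanylate-binding GTPase, was at 2.45, 2.08, 1.67 and 2.43 CPM in GF and at 4.34, 2.63, 3.42 and 5.25 CPM in exGF. Rsad2 (viperin), an antiviral radical enzyme, was at 0.580, 0.502, 0.371 and 0.772 CPM in GF and at 1.30, 0.913, 1.21 and 1.23 CPM in exGF. In both genes the groups did not overlap, and the log2 fold changes were 0.86 (0.24) and 1.03 (0.30), with edgeR adjusted p of 0.395 and 0.418. Ifit1, which binds viral RNA, had 2.19, 2.51, 1.86 and 2.55 CPM in GF and 5.09, 2.17, 3.04 and 4.25 CPM in exGF, with exGF-P2 inside the GF range. Of the 16 tested members 14 lay above 0, 4 were higher at an unadjusted p under 0.05 (Gbp3, Rsad2, Ifit1 and Rtp4) and 0 were lower, and 0 were called by either tool. The median of 0.32 was 0.37 without exGF-P1 and exGF-P2, so that these pools did not carry it. Antigen presentation genes of MHC class I, which also respond to interferon, had a median of 0.01 over 8 genes.

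Interferon-responsive promoters typically hold a repeat in which GAAA or its reverse TTTC occurs in pairs. Stretches upstream of 3 of these genes are given to show it, from RefSeq windows of GRCm38.p6, 5′ to 3′ on the strand of the gene, with each match to the pattern (GAAA, any 2 bases, GAAA, or TTTC, any 2 bases, TTTC, which is the same on the other strand) in capitals. Overlapping matches run together.

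Gbp3: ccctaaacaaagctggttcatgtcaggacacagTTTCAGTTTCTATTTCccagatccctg

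Rsad2: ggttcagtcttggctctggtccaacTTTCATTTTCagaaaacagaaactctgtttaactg

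Ifit1: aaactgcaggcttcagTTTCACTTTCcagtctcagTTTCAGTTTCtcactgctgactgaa

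These pieces lie at chr3:142559966-142560025 (plus strand, bases -78 to -19 from the start), chr12:26456538-26456597 (minus strand, -145 to -86) and chr19:34640769-34640828 (plus strand, -120 to -61). The pattern was in the windows of 8 of the 13 tested interferon-stimulated genes that had one, and in 3.44% of all windows. Genes of this list are defined by interferon, so the count describes the list and says nothing about these pools.

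Rps29 and several genes of mitochondrial proteins were among the called genes. Rps29, a protein of the small ribosomal subunit, was at 120, 103, 92.3 and 95.7 CPM in GF and at 144, 196, 150 and 131 CPM in exGF, without overlap (0.59 (0.12); adjusted p of 0.275 by edgeR and 0.00565 by DESeq2). Ndufa1 of complex I was called at 0.55 (0.13), Uqcr11 of complex III at 0.51 (0.12), the copper chaperone Cox17 of complex IV at 0.61 (0.15) and Minos1, which shapes the inner membrane folds, at 0.58 (0.12). All 4 were without overlap. Without exGF-P1 and exGF-P2, Rps29 was at 0.45, Ndufa1 at 0.57, Uqcr11 at 0.31, Cox17 at 0.58 and Minos1 at 0.44. DESeq2 called 1 of 52 listed ribosomal protein genes (Rps29) and 1 of 45 listed nuclear-encoded respiratory chain genes (Ndufa1). Over all genes it called 0.381% higher. Of the 52 ribosomal protein genes, 13 were higher and 2 lower at an unadjusted p under 0.05, with a median of 0.06. Of the 45 respiratory chain genes, 4 were higher and 0 lower, with a median of 0.04. In both lists the share of higher genes exceeded the background of 4.95%, most of all for the ribosomal proteins. Both list medians nevertheless stayed near that of all genes (-0.01). Ribosomal protein genes have many processed copies in the genome, and whether reads moved between copies was not tested. Rpl29 was at 1.68, 1.65, 18.4 and 0.831 CPM in GF and at 33.4, 32.6, 17.2 and 14.2 CPM in exGF, so that GF-P3 alone was like exGF.

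Among the genes lower in exGF, Leng8 (chr7:4137039-4148177), a nuclear protein related to mRNA export factors, had the smallest p. Its pools were at 75.4, 79.1, 81.4 and 67.3 CPM in GF and at 42.1, 40.9, 54.7 and 50.5 CPM in exGF. The lowest GF pool was well above the highest exGF pool, and the log2 fold change was -0.68 (0.11; adjusted p of 0.169 by edgeR and 3.68e-05 by DESeq2), or -0.52 without exGF-P1 and exGF-P2. Slc6a6 (chr6:91684053-91759066), the transporter that takes up taurine, had 150, 133, 153 and 153 CPM in GF and 88.6, 104, 101 and 119 CPM in exGF, at -0.52 (0.09; adjusted p of 0.261 and 0.00128). Taurine is an osmolyte and a partial agonist at inhibitory receptors. Meg3, a long imprinted non-coding RNA abundant in neurons, was called as well. It had 216, 212, 225 and 239 CPM in GF and 141, 134, 183 and 172.4 CPM in exGF. Without exGF-P1 and exGF-P2, Slc6a6 was at -0.41 and Meg3 went from -0.50 to -0.32. Cd46, a complement regulator on the cell surface, was at 4.38 ± 0.208 CPM in GF and 2.38 ± 0.489 in exGF (SD, n = 4), but several annotated loci overlap it.

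**Figure D3:**
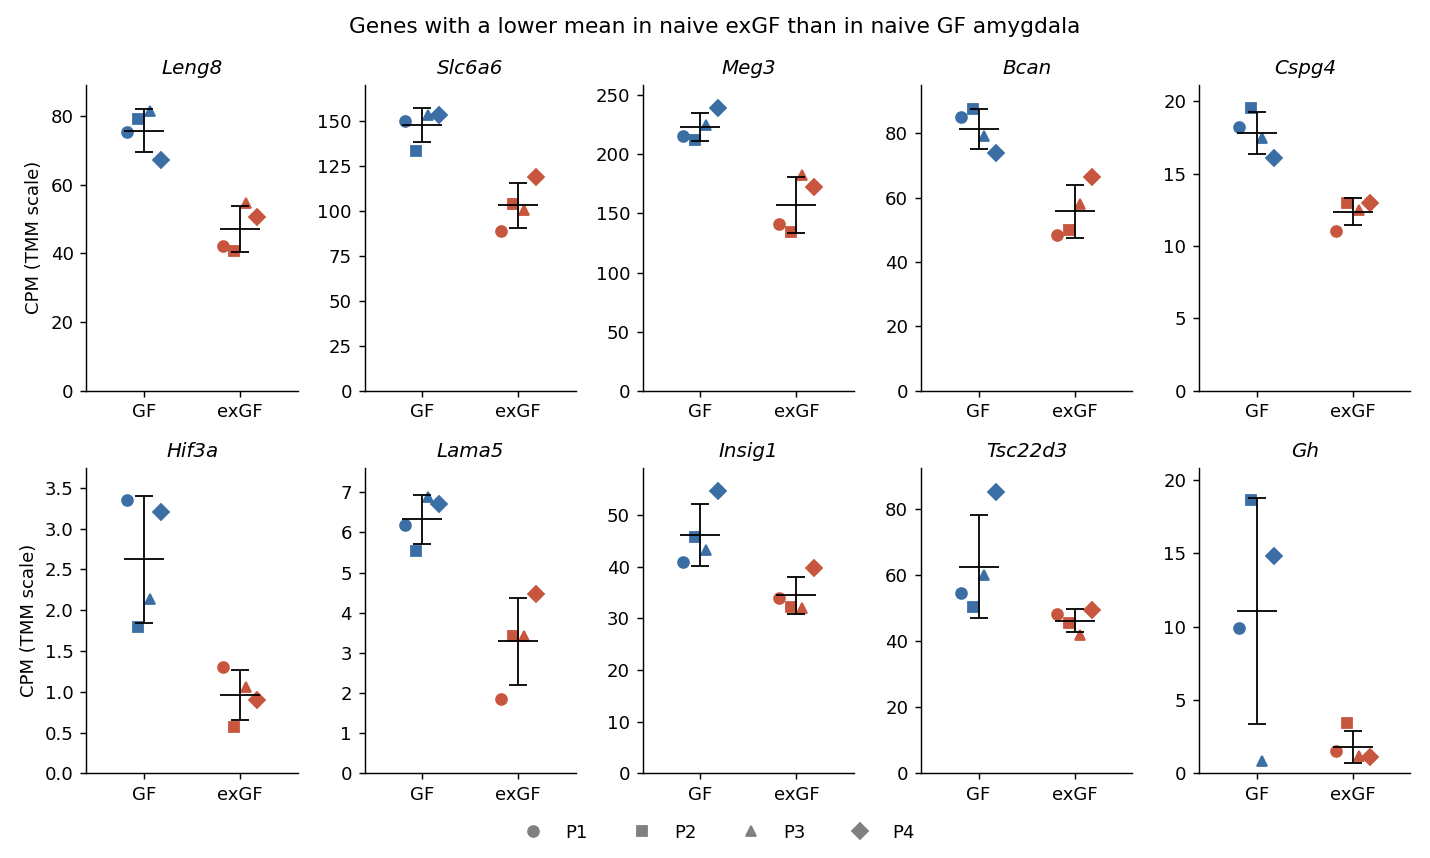
CPM (TMM scale, vertical axes from 0) of 10 genes with a lower mean in exGF, drawn as above with 1 point for each GF (blue) and exGF (red) pool and lines for the mean ± SD. Leng8, Slc6a6, Bcan, Cspg4 and Lama5 show separate groups, the GF mean of Tsc22d3 is raised by GF-P4, and Gh is high in 3 GF pools and low in GF-P3.

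Genes of the extracellular matrix were among the lower ones. Chondroitin sulphate proteoglycans fill the space around synapses and form perineuronal nets, and laminins build the basement membrane of vessels. Bcan (brevican), the brain proteoglycan of these nets, had 85.2, 87.6, 79.0 and 73.8 CPM in GF and 48.6 to 66.4 CPM over the exGF pools. Cspg4 (NG2), the proteoglycan that marks oligodendrocyte precursors and pericytes, had 18.2, 19.5, 17.5 and 16.1 CPM in GF and 11.1, 13.0, 12.5 and 13.0 CPM in exGF. Both were separate between groups and called, at -0.54 (0.11) and -0.52 (0.10). Chpf2, an enzyme that lengthens the chondroitin chain, was separate and called too, at -0.49 (0.11). Without exGF-P1 and exGF-P2, Bcan was at -0.38, Cspg4 at -0.47 and Chpf2 at -0.39. Lama5, a laminin chain of vessel walls, was at 6.19, 5.53, 6.87 and 6.71 CPM in GF and at 1.84, 3.42, 3.42 and 4.47 CPM in exGF. Tinagl1, a secreted protein of the basement membrane, averaged 4.25 ± 1.28 CPM in GF and 1.97 ± 0.484 in exGF, and Heg1, a receptor of endothelial junctions, 38.5 ± 7.44 and 26.4 ± 1.97 (SD, n = 4). All 3 were called, Heg1 with an overlap through GF-P2. Without exGF-P1 and exGF-P2, Lama5 went from -0.90 to -0.66, Tinagl1 from -1.12 to -1.23 and Heg1 from -0.55 to -0.60. These genes were grouped by function after their values were seen. Markers of the cells that make them were set beside these genes, and their part in the difference was not tested. Of 9 precursor markers 2 lay above 0 and 1, Cspg4 itself, was lower at an unadjusted p under 0.05, with a list median of -0.10. Of 10 astrocyte markers 2 lay above 0 and 2 were lower at that level, also with a median of -0.10. Of 12 endothelial and pericyte markers 1 was higher and 1 lower, with a median of 0.10.

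Of the genes that glucocorticoids induce, 3 were lower in exGF at an unadjusted p under 0.05, with a wide spread among the GF pools. Corticosterone acts through the receptor Nr3c1 to raise a stable set of targets in the brain. Sgk1, a kinase of ion transport, stood at 63.4, 49.6, 99.5 and 114 CPM in GF and at 54.2, 48.7, 53.2 and 48.8 CPM in exGF. Tsc22d3 (Gilz), a repressor of inflammation, stood at 54.5, 50.3, 60.1 and 85.1 CPM in GF and at 48.2, 45.4, 41.8 and 49.3 CPM in exGF. Plin4, a lipid droplet protein, had 3.42, 1.15, 4.46 and 15.4 CPM in GF and 1.41, 0.913, 1.67 and 2.12 CPM in exGF. GF-P4 was the highest pool in each of the 3 genes, and the exGF pools were close to each other. Tsc22d3 was without overlap between the groups, while Sgk1 and Plin4 overlapped. The log2 fold changes were -0.67 (0.21), -0.44 (0.14) and -1.95 (0.63), all with an edgeR adjusted p of 0.433 and none called by DESeq2. Leaving out GF-P4 moved Plin4 to -0.89 and the list median from -0.16 to 0.01, while leaving out exGF-P1 and exGF-P2 moved the median to -0.26. Of the 15 listed genes these 3 were lower at an unadjusted p under 0.05 and 0 were higher. Nr3c1 itself was 0.30 (0.09) higher in exGF.

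Hif3a, an inhibitory subunit of the hypoxia factor family, was at 3.35, 1.79, 2.14 and 3.21 CPM in GF and at 1.30, 0.571, 1.063 and 0.894 CPM in exGF, which gave -1.46 (0.30; edgeR adjusted p 0.275) without overlap. At the blood-brain barrier, Slc2a1 (Glut1), which carries glucose, averaged 75.2 ± 17.5 CPM in GF and 53.0 ± 7.51 in exGF, and Mfsd2a, which carries omega-3 lipids, 13.5 ± 2.90 and 9.20 ± 1.39 (SD, n = 4). The groups overlapped in both, and of 16 barrier and junction genes these 2 were lower and 1 was higher at an unadjusted p under 0.05, with a median of 0.05. Insig1 and Lss, which belong to the sterol-controlled set that senses or makes cholesterol, were each lower in all exGF pools. Insig1 was at 40.9, 45.7, 43.3 and 54.7 CPM in GF and at 34.0, 32.2, 32.0 and 39.7 CPM in exGF, at -0.42 (0.11), with Lss at -0.42 (0.12). They were not called, and the median of the 22 genes of the list was -0.02.

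Apart from Gm42418 and Lars2, growth hormone (Gh) had the largest difference of any named gene. Lars2 was called at 5.39 (1.42), with 7941 CPM in exGF-P1 and 2595 CPM in exGF-P2 against 16.7 to 149 CPM in the other pools. Without exGF-P1 and exGF-P2 it was at -0.31. Gh is a pituitary hormone with low transcript levels in the limbic brain. Its pools were at 9.93, 18.7, 0.836 and 14.8 CPM in GF and at 1.52, 3.42, 1.21 and 1.12 CPM in exGF, so that 3 of the GF pools were high and GF-P3 was below all exGF pools. The log2 fold change was -2.72 (0.64; adjusted p of 0.369 by edgeR and 0.185 by DESeq2). In the fit without GF-P3, Gh was among the 3 genes called by edgeR. Prl, another pituitary hormone, was called in that fit too and was likewise lower in exGF. CON pools ran from 0 to 18.1 CPM, which covers both groups.

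Most loci of one non-coding class lay below 0. The annotation class TEC holds unspliced transcripts that await experimental proof, most of which lie within other genes. Over its 221 tested loci the median log2 fold change was -0.38, against -0.00 over 13367 protein-coding genes, and 195 of them lay below 0. At an unadjusted p under 0.05 were 60 lower (background 4.47%) and 1 higher (4.95%). Summed over the class, GF pools were at 684, 571, 694 and 805 CPM and exGF pools at 555, 575, 527 and 523 CPM, so that GF-P2 was alone inside the exGF range. Antisense genes (203, median -0.15, 20 lower and 1 higher) and lincRNAs (227, median -0.12, 19 lower and 6 higher) went the same way by less. Of the 25 genes that DESeq2 called lower, 11 were non-coding or without a symbol, and of the 47 called higher 2 were. The class median of TEC loci was -0.40 without exGF-P1 and exGF-P2 and -0.32 with a correction for GC content and transcript length. Reads were counted without regard to strand and 195 of the 221 loci overlap another gene, so reads from unspliced RNA of the host genes cannot be told from their own. The class was picked after its values were seen.

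Across the other lists, differences stayed small. Myelin and oligodendrocyte differentiation genes had 0 of 20 members at an unadjusted p under 0.05 in either direction and a median of 0.06. Complement, microglia and phagocytosis genes had 0 of 19 higher and 1 lower, with a median of -0.06. Serotonin receptors, transport and tryptophan metabolism, often discussed as routes from gut to brain, had 0 of 15 in either direction and a median of -0.12, neurotrophins and their receptors 0 of 7 and -0.09, and GABA genes 1 of 19 in each direction and -0.05. Genes for ketone bodies, monocarboxylates and short-chain fatty acids had 2 of 15 higher and 0 lower, with a median of 0.07. Of 30 SR and hnRNP splicing regulators, 9 were higher and 5 lower, which is a larger share than the background in both directions, with a median of 0.11 and of 0.03 without exGF-P1 and exGF-P2. No member of any list was called by edgeR.

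**Figure D4:**
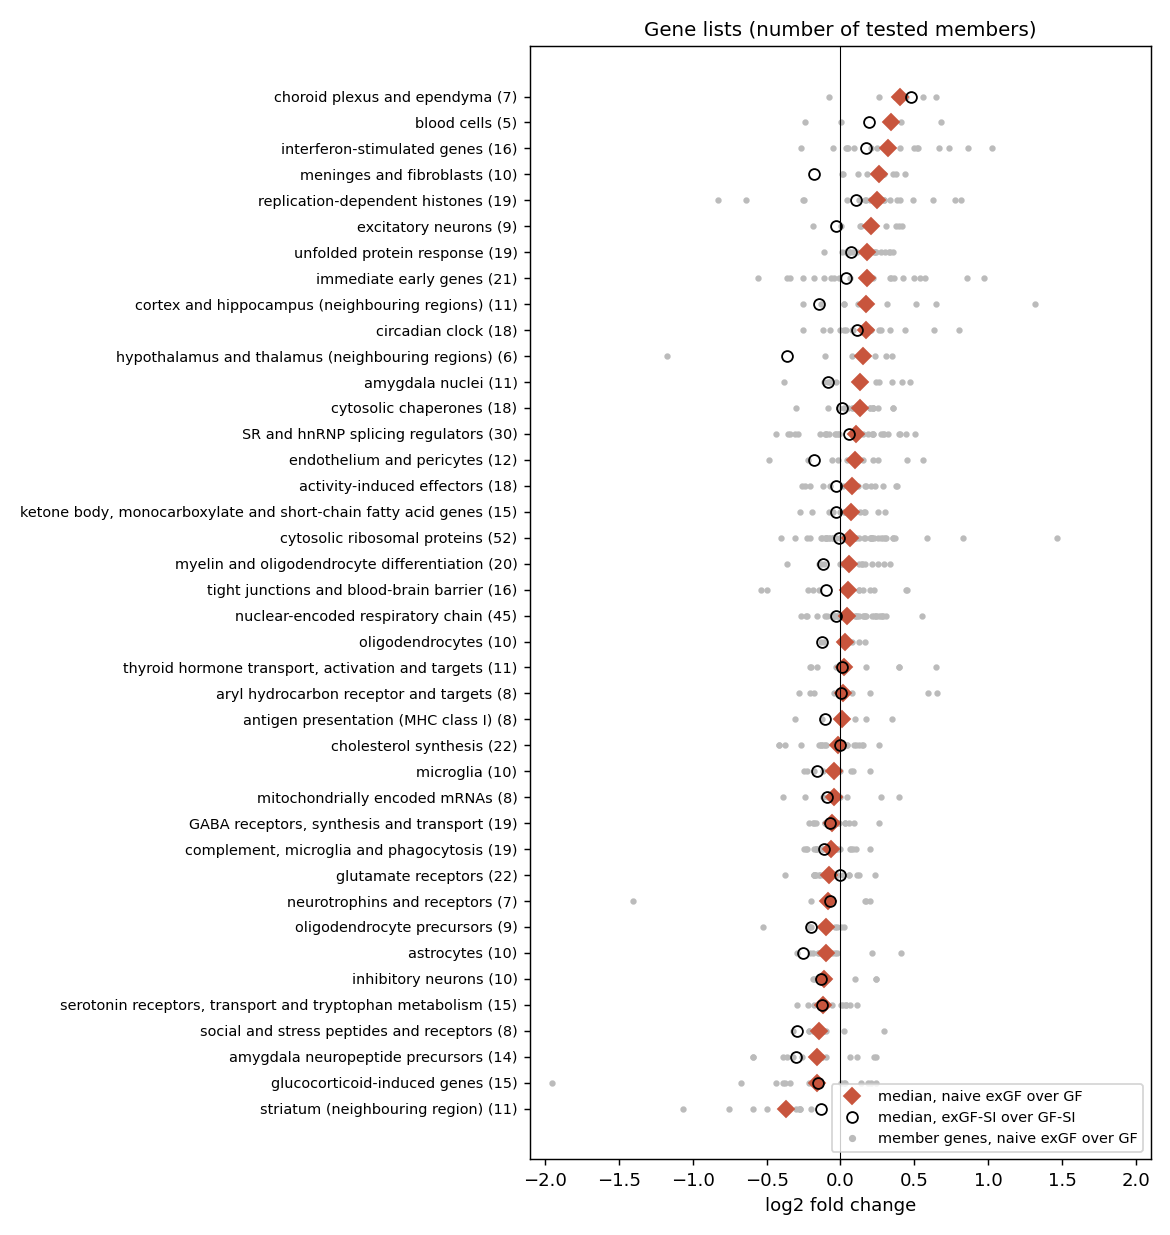
Log2 fold changes (horizontal axis) of the listed genes, with 1 row for each list and its number of tested members, grey points for single genes and red diamonds for the list median in naïve exGF over GF; open circles give the median in exGF-SI over GF-SI. Markers of choroid plexus and ependyma (0.40 in naïve, 0.48 in SI) and of blood cells (0.34 and 0.20) lie above 0 in both comparisons. So do interferon-stimulated genes, histones, the unfolded protein response and the clock, while most other medians are within 0.2 of 0.

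Markers of cell types and neighbouring regions were compared because dissection can move them. Summed levels overlapped between GF and exGF for microglia (245 to 270 and 223 to 272 CPM) and astrocytes (3619 to 5021 and 3829 to 4999 CPM). They also overlapped for oligodendrocytes, their precursors, endothelium, excitatory and inhibitory neurons. Of 9 excitatory neuron markers 8 lay above 0, with a median of 0.21 that was 0.04 without exGF-P1 and exGF-P2. Of 10 inhibitory neuron markers 3 did, with medians of -0.11 and 0.003. Of 11 cortex and hippocampus markers 9 lay above 0, with medians of 0.18 and 0.16. The part of these markers in other results was not tested. Choroid plexus and ependyma markers, with 6 of 7 above 0, had a median of 0.40, and of 0.55 without exGF-P1 and exGF-P2. All 10 markers of meninges and fibroblasts lay above 0, 2 of them at an unadjusted p under 0.05, with a median of 0.26 that was 0.06 without these pools. Blood cell markers, with 4 of 5 above 0 and 2 at that level, had a median of 0.34, or 0.16 without them. Summed levels of these 3 lists overlapped between groups, at 26.7 to 38.4 and 24.4 to 57.3 CPM, 155 to 255 and 177 to 291 CPM, and 82.7 to 133 and 78.1 to 169 CPM in GF and exGF, and their part in other results was not tested. All 11 tested striatal markers lay below 0 with a median of -0.37, with summed levels of 223 to 533 CPM in GF and 194 to 269 CPM in exGF, and without GF-P1 the median was 0.09. In GF-P1 markers of cholinergic neurons, which sit in the basal forebrain next to the amygdala, summed to 31.0 CPM against 0.69 to 1.46 CPM in exGF pools, with Slc5a7, the choline transporter, at 14.8 CPM and Chat at 5.30 CPM. The striatal dopamine receptor Drd1 was at 27.1 CPM in that pool and at 13.4 to 15.4 CPM in the other GF pools. Lead genes without overlap can hardly turn sign when a pool is left out, so only the size of the difference is informative. The part of dissection in their differences was not tested. Without each of the 8 libraries in turn, Per2 was at 0.57 to 0.75, Hist1h4h at 0.71 to 0.92, Slc6a6 at -0.59 to -0.45 and Cspg4 at -0.57 to -0.47. In pooled tissue, fewer cells of a type and less RNA per cell cannot be told apart.

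The same contrast was made in mice killed 1 hr after social interaction (SI), 8 single animals of exGF-SI and 12 of GF-SI, which share no library with the naïve pools. Here edgeR called 15 of 15068 genes (0.0995%) and DESeq2 296 (2.08%). The edgeR count moved between 2 and 185 as single animals were left out, the latter without column exGF-S5. None of the 72 genes called in the naïve pools was among the edgeR calls, and 26 of the 72 had the same sign. At an unadjusted p under 0.05 were 18, 4 of them with the same sign. Of the 72, DESeq2 called Hexim1, Crebzf and Sh3bp5 in SI as well, each with the opposite sign. Hexim1 was at 0.38 in naïve and -0.24 in SI, Crebzf at -0.35 and 0.43, and Sh3bp5 at 0.52 and -0.28. Genes higher in naïve exGF had a median of -0.04 in SI and genes lower in it one of 0.10. The difference between the 2 contrasts, tested in 1 fit over the 6 groups, passed for 0 of 16111 genes, and 1839 (11.4%) had an unadjusted p under 0.05. Of all 14587 genes tested in both, 44.4% had the same sign. Of the 1375 at an unadjusted p under 0.05 in the naïve pools, 35.2% did, 60 of them with an unadjusted p under 0.05 in SI as well, and 164 were under 0.05 with the opposite sign.

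Per2 was among those that kept their sign. GF-SI animals spanned 33.5 to 67.5 CPM (median 56.4), exGF-SI animals 54.3 to 69.0 CPM (median 63.6), and the log2 fold change was 0.21 (0.09; edgeR adjusted p 0.364). Nr1d1 at 0.21 (0.09) and Nr1d2 at 0.21 (0.09) in SI were close to their naïve values of 0.18 and 0.27, while Bhlhe40 was at -0.10 (0.13). Of the interferon-stimulated genes, 13 of 16 lay above 0 in SI with 3 higher and 0 lower at an unadjusted p under 0.05 (backgrounds 6.26% and 6.68%) and a median of 0.17. The Gbp3 median was 2.76 CPM without and 3.55 CPM with colonisation, that of Rsad2 1.05 and 1.41 CPM, and the log2 fold changes in SI were 0.44 (0.18) and 0.49 (0.17), with edgeR adjusted p of 0.309 and 0.244. Ifit1 was at 0.59 (0.25), with 1 exGF-SI animal at 14.1 CPM. Of the unfolded protein response genes, 6 of 19 were higher and 0 lower in SI. Among them were Creld2 at 0.32 (0.09) and Pdia4 at 0.24 (0.08), against 0.33 and 0.23 in the naïve pools. Cytosolic chaperones did not lean to 1 side in SI, with 9 of 18 above 0, 1 higher and 0 lower at an unadjusted p under 0.05, and a median of 0.01. Among lower genes, Hif3a was at -0.52 (0.24), Plin4 at -0.88 (0.41) and Mfsd2a at -0.41 (0.16) in SI.

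Further genes at an unadjusted p under 0.05 with the same sign in both settings, picked after their values were seen, included the astrocyte genes Slc1a3, a glutamate transporter (-0.19 in naïve, -0.17 in SI), and Fgfr3, a growth factor receptor (-0.29 and -0.32). The NMDA receptor subunit Grin2c (-0.37 and -0.34) and the endothelial antigen Ly6c1 (-0.48 and -0.58) were lower in both as well. Of the 10 astrocyte markers, 8 were lower at an unadjusted p under 0.05 in SI and 0 lay above 0, with a median of -0.25, against 2 lower and a median of -0.10 in the naïve pools. Of the 9 precursor markers, 5 were lower in SI, with a median of -0.20. Cspg4, the precursor marker that was lower in the naïve pools, was at 0.06 (0.09) in SI. Whether these lists differ between the settings was not tested. Other lead genes turned. Leng8 was at 0.44 (0.19) and Cd46 at 0.47 (0.20) in SI, Sh3bp5, a binding partner of the kinase JNK that was 0.52 (0.11) higher in naïve exGF, at -0.28 (0.08), and Minos1 at -0.34 (0.12). Hist1h4h was at -0.16 (0.20), Rps29 at -0.17 (0.11), Ndufa1 at -0.10 (0.10), Uqcr11 at -0.18 (0.10) and Cox17 at -0.31 (0.16). Further lead genes were near 0 in SI. Slc6a6 was at 0.02 (0.07), Dnajb5 at -0.03 (0.11), Banp at 0.10 (0.07), Lama5 at -0.06 (0.14) and Chpf2 at 0.06 (0.09). TEC loci turned as a class, with a median of 0.33 in SI, 38 higher and 1 lower at an unadjusted p under 0.05, and sums that ran from 444 to 947 CPM in GF-SI animals and from 416 to 1097 CPM in the exGF-SI ones.

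**Figure D5:**
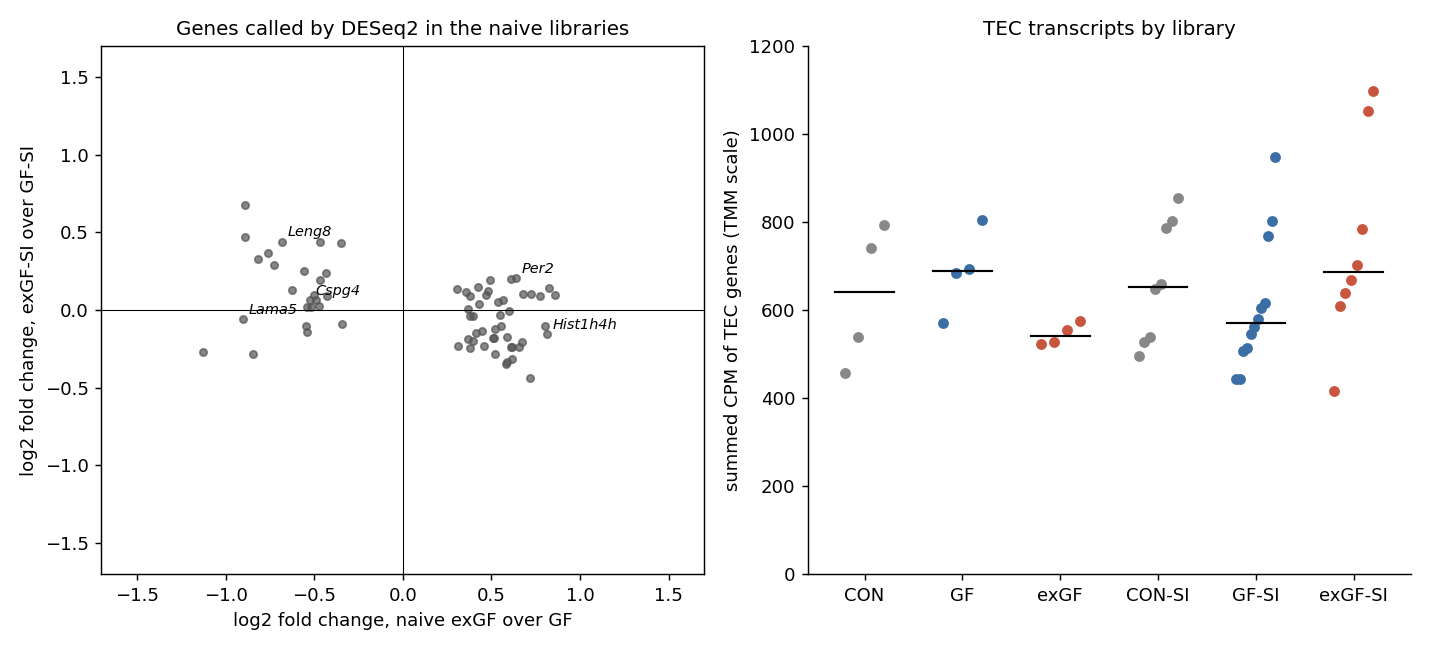
Left, log2 fold change of exGF-SI over GF-SI (vertical axis) against that of naïve exGF over GF (horizontal axis) for the genes called by DESeq2 in the naïve pools, 2 of the 72 lying outside the frame; points fall on both sides of 0 in SI. Right, summed CPM of TEC loci (vertical axis) in each library of the 6 groups with the group median as a line, where the exGF pools lie at 523 to 575.

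Levels in naïve CON pools were set beside those of GF and exGF on 1 scale for all 6 groups. Gm42418 took 32.3% of the counts of CON-P1 and 18.5% of CON-P3, and the CON values include both pools. CON mice came from other parents, and GF enters each pair of values, so no test is given. For some genes the CON pools spanned both groups, as Leng8 did from 40.3 to 81.3 CPM and Meg3 from 121 to 264 CPM. In other genes CON and exGF were alike. Slc6a6 ran from 96.7 to 123 CPM over the CON pools and was at 148 ± 9.22 in GF and 104 ± 13.3 in exGF, and Mir9-3hg, the host transcript of a neural microRNA, at 11.5 ± 1.99, 17.4 ± 2.96 and 11.3 ± 1.02. Tinagl1 was at 2.05 ± 0.271, 4.29 ± 1.31 and 1.98 ± 0.484 CPM, and Sgk1 at 47.8 ± 7.47, 82.1 ± 30.1 and 51.7 ± 2.83 (SD, n = 4). For others CON was near GF, and exGF stood apart. Per2 was at 26.0 ± 2.84 CPM in CON, 24.7 ± 4.06 in GF and 38.7 ± 3.096 in exGF, Dnajb5 at 44.3 ± 7.12, 44.0 ± 3.81 and 64.6 ± 5.08, Banp at 15.8 ± 1.95, 14.4 ± 1.16 and 23.8 ± 2.61, and Cspg4 at 17.5 ± 1.45, 18.0 ± 1.48 and 12.5 ± 0.979.

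Gkn3, a gastrokine made by arterial endothelium, was in between. It had 1.03, 0.933, 0.650 and 0.475 CPM in GF, 1.41, 2.97, 1.44 and 3.80 CPM in exGF, without overlap (1.66 (0.38); edgeR adjusted p 0.355), and 3.70 ± 0.375 CPM in CON. Kcnj16, a potassium channel of astrocytes and of pH sensing, showed no difference beyond the spread between GF and exGF pools, at 7.49 ± 1.96 and 7.47 ± 0.856 CPM, while CON was at 18.5 ± 4.97. Tuba1c, an alpha tubulin, was at 0.867 ± 0.209 and 0.776 ± 0.396 CPM in GF and exGF against 10.8 ± 5.88 in CON (SD, n = 4). For these 2 genes the log2 fold change between exGF and GF had standard errors of 0.18 and 0.37. Tubulin genes share sequence with close relatives, which makes the Tuba1c value uncertain.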

How the data were processed

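Deposited values are whole-number gene counts, which the authors made from stranded, ribodepleted paired-end reads with Trimmomatic 0.32, STAR 2.4.0f1 (GRCm38.p3) and HTSeq 0.6.0, counting without regard to strand. Symbols came from GENCODE vM21 (42462 of 43629 genes matched). Groups were compared by edgeR 4.0.16 in R 4.3.3 (quasi-likelihood test, TMM scaling, filterByExpr, Benjamini-Hochberg adjustment, threshold 0.1). DESeq2 1.42.0 and limma 3.58.1 (voom with quality weights) were alternatives, as were other scalings, filters and a correction for GC content and length. Tested on simulated data for this comparison (14669 genes, 200 of them altered), edgeR found 46% of the changes of 0.5 (log2) and 89% of those of 1, with 15 false calls. Pools of a group differed by more than sampling noise (chi-square over degrees of freedom at least 7.94).

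The members and lists were chosen with earlier results of these data known. Genes were named from edgeR calls, the 15 largest DESeq2 calls in each direction, the 10 smallest edgeR p in each direction without overlap (both at a mean of at least 1 CPM), the 4 smallest p of each list, calls with a library left out, and genes singled out in other naïve comparisons. Uqcr11, Chpf2 and Hist2h2ac fall outside that rule and were named after their values were seen. Column numbers P1 to P4 were matched to replicate numbers in the sample titles. Leaving out both exGF-P1 and exGF-P2 was an alternative chosen after seeing the data. Some genes are not reported here.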

Additional observations from a re-analysis of the deposited data

Results flagged for a closer look

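Of 126 groups of 4 pools examined for the named genes, 8 held a pool far from the other 3 by Dixon's criterion, and chance gives about 1 in 20. All 8 were GF pools. GF-P4 was high in Bhlhe40, at 57.3 CPM against 34.6 to 37.7 in the other GF pools, and in Dnajb5, at 49.0 CPM against 41.5 to 42.3. GF-P3 was high in Rpl29, at 18.4 CPM against 0.831 to 1.68, and low in Ddit3, at 8.54 CPM against 10.3 to 10.6, and in Tuba1c, at 0.557 CPM against 0.933 to 1.01. GF-P2 was high in Kcng1, at 21.8 CPM against 14.7 to 14.96, and low in Heg1, at 27.5 CPM against 41.2 to 43.7. GF-P1 was high in Drd1, at 27.1 CPM against 13.4 to 15.4.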

How the results depend on the processing

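edgeR called 0 genes in the naïve comparison also with RLE size factors, a minimum mean of 1 CPM, the 3 naïve groups in 1 fit, rRNA genes removed, and the GC and length correction, and limma with quality weights called 0. Other settings gave other counts, with those past 0.5 on the log2 scale second: DESeq2 72 and 45, no filter on low counts 80 and 68, all 6 groups in 1 fit 3 and 3, without exGF-P1 and exGF-P2 2 and 2, and with one pool left out 0 to 3 for both. Of 1100 values of 58 genes over up to 19 settings, 1086 kept their direction. Kcnj16, near 0, turned to 0.00524 (DESeq2), 0.000847 (RLE), 0.00456 (no filter), 0.000448 (3 groups), 0.00185 (6 groups), 0.0561 (limma) and 0.0441 (without exGF-P1 and exGF-P2), and ran from -0.12 to 0.196 with one pool left out. Tuba1c turned to 0.212 without exGF-P1 and exGF-P2 and ran from -0.40 to 0.146. Genes without overlap numbered 1065 to 1532 with one pool left out and 2130 without exGF-P1 and exGF-P2, since fewer pools overlap less often. Without exGF-P1 and exGF-P2, list medians moved by over 1.5 times for the clock (0.0349), immediate early genes (-0.276), histones (0.123), the unfolded protein response (0.103) and glucocorticoid-induced genes (-0.261), among others. With one pool left out they ran from 0.118 to 0.326 for histones, 0.0982 to 0.190 for chaperones, -0.230 to 0.00907 for glucocorticoid-induced genes and -0.499 to 0.0855 for striatal markers. The SI count was 296 by DESeq2, 3 with no filter, 135 with 6 groups in 1 fit and 2 to 185 with one animal left out. The difference in haemoglobin share (exGF minus GF, percentage points) ran from -0.00147 to 0.000581, being 0.000381 without GF-P3. Apart from the settings whose construction shows it, the cause was not tested.

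With the replicate number as a block, edgeR called 5 genes (Hist1h4f, Kcng1, Hist1h4h, Banp and Leng8), 5 past 0.5, and Kcnj16 was at 0.0241. The labels do not say that the numbers pair the pools, and so few correlations cannot settle it. Same-numbered pools correlated at 0.153, 0.054, 0.321 and -0.107 in their deviations, and differently numbered ones from -0.229 to 0.284. Not every pool correlated best with its own number.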
